A study of Rattus norvegicus with 6 samples.

Results

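The genes described here encode the enzymes that build cholesterol and fatty acids, with their main regulators, measured in the renal cortex of rats given the phenylurea herbicide monuron. They are 33 named genes, 21 in a sterol branch and 12 in a fatty acid branch. The list was chosen with earlier results of these data known. Of them 31 are among the 30229 genes tested, where a gene is a RefSeq symbol (12072 of these) or, for probes without one, the array's own identifier. A gene's probes were found by matching the array's accession to a RefSeq gene. Each gene is given by its brightest probe, judged by the mean of the 6 arrays, among the probes that the scanner software marked as well above background in every animal of the corn oil group, of the monuron group or of both. Of the 33 members, 32 had a matched probe, and those tested were all 21 of the sterol branch and 10 of the fatty acid branch. Srebf1, the fatty acid branch's transcription factor, had no matched probe. Scd, a stearoyl-CoA desaturase, had 2 probes and was not tested: the brighter one cleared background in 1 monuron animal and the other in 0 of the 6.

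Male Sprague-Dawley (Crl:CD(SD)) rats, bought at 5 weeks of age, received for 4 weeks either corn oil, the vehicle (3 animals), or monuron at 200 mg/kg/day (3 animals). One-colour Agilent arrays, on which RNA labelled with the dye Cy3 binds oligonucleotide probes, gave 1 value per probe and animal. All animals shared sex, strain, basal diet and tissue, and a single dose and a single duration were tested, so no dose or time course can be read. Corn oil arrays shared one slide and monuron arrays another, and slide and treatment cannot be told apart in any value given here.

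Cells make cholesterol from acetyl-CoA through mevalonate, squalene and lanosterol. The transcription factor SREBP-2, encoded by Srebf2, switches the sterol enzymes on when membranes of the endoplasmic reticulum run low in cholesterol, and INSIG proteins hold the SREBP escort SCAP back when sterols are plentiful. SREBP-1c, encoded by Srebf1, mainly drives fatty acid synthesis and also answers to insulin and to the sterol receptor LXR. In the kidney, proximal tubule cells burn fatty acids as their main fuel.

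The promoters of genes under SREBP control often carry a sterol regulatory element beside sites for the factors NF-Y, which binds CCAAT, and Sp1, which binds GGGCGG. RefSeq windows (build GRCr8) from 250 bases before to 50 after the table's start site were matched for 26 of the 33 members, 17 windows in the sterol branch and 10 in the fatty acid branch, since Srebf1 has more than 1. The 7 members without a window were Sqle, Fdft1, Stard4, Pmvk, Fasn, Acaca and Elovl6, and no motif count below covers them. The windows of 4 sterol genes are shown, cut to the 200 bases before the start and read 5′ to 3′ along the gene's strand. Capitals mark CCAAT or GGGCGG on either strand. Idi1, Lss and Cyp51 are shown since they were among the genes whose values were higher in every monuron animal, and Mvk since it holds 5 CCAAT matches although its values did not separate the groups.
Idi1, chr17:66547525-66547724, strand minus: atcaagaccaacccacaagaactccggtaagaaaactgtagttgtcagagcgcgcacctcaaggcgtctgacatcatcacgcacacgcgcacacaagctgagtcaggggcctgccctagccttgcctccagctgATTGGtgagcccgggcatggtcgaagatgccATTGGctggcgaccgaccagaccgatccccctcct
Lss, chr20:12118231-12118430, strand minus: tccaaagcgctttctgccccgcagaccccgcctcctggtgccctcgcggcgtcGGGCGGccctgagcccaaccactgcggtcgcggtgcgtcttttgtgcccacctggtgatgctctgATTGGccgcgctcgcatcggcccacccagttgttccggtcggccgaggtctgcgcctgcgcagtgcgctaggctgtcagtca
Cyp51, chr4:30991493-30991692, strand plus: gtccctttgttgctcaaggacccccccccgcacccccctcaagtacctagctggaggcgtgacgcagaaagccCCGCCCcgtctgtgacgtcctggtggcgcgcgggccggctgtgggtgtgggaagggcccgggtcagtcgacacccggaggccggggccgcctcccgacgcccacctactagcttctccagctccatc
Mvk, chr12:47819504-47819703, strand minus: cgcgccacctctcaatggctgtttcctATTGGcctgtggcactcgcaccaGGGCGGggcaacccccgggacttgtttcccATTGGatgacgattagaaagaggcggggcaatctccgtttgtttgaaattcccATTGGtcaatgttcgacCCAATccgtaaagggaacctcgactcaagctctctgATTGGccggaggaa

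Idi1 holds 2 CCAAT matches and Lss 1, while the Cyp51 window holds 0. Over the sterol branch, CCAAT was found in 14 of 17 windows (82.4%), beside 37.5% of all 33469 windows and 37.8% of the 10358 windows of genes tested here. GGGCGG was found in 15 of 17 (88.2%), beside 33.1% and 57.2%. In the fatty acid branch CCAAT was found in 8 of 10 windows and GGGCGG in 7. The E-box CACGTG was in 2 sterol and 1 fatty acid windows, beside 6.42% of all windows and 8.78% of the windows of genes tested here. The sterol regulatory element, searched on both strands as TCACCCCAC and as TCACNCCAC (which contains the first), was in 0 of the 27 windows of members, beside 0.484% and 1.12% of all windows. These are letter matches within a short window, and a missing match says nothing of sites outside it.

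In monuron-dosed cortex the squalene epoxidase gene Sqle rose 1.63-fold (95% interval 1.40 to 1.88, n = 3 per group), and it was the one member past the adjusted threshold of limma's test. Around it 11 of the 21 sterol genes reached an unadjusted p under 0.05, all of them higher relative to each array's 75th percentile, though 7 of these 11 lay below 0 on the log2 fold scale when arrays were scaled on spike-in controls: Sqle, Lss, Dhcr7, Tm7sf2, Idi1, Insig1, Cyp51, Sc5d, Pmvk, Srebf2 and Hmgcs1. In the fatty acid branch 1 of 10 did, the acetyl-CoA synthetase gene Acss2. No member was called lower or reached an unadjusted p under 0.05 in that direction. Fold changes were small, from 0.855 for Acacb to 1.63 for Sqle. Under spike-in scaling all genes shifted to a median log2 fold change of -0.46 and the sterol and fatty acid medians stood at -0.31 and -0.39, which is 0.15 and 0.07 above the median of all genes, as with the 75th percentile. In bulk tissue fewer cells of a type and less RNA per cell cannot be told apart.

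Among all 30229 genes, 287 (0.949%) were called higher and 125 (0.414%) lower at a limma adjusted p under 0.05, and the members' count of 1 is read against that share. At the unadjusted threshold 3285 genes (10.9%) were higher and 2035 (6.73%) lower, against 52.4% and 0 of the 21 sterol genes and 10.0% and 0 of the 10 fatty acid genes. The groups did not overlap, every monuron array lying above every corn oil array, for 13 of 21 sterol genes and 3 of 10 fatty acid genes. Of all genes 15.5% separated that way and 10.3% the other way, which 0 members did. The sterol branch had a median log2 fold change of 0.17 and the fatty acid branch of 0.10, beside 0.02 for all genes, whose quartiles were -0.10 and 0.17. Log2 fold changes were above 0 for 18 of 21 sterol genes (15 to 20 with 1 array left out in turn, 4 with spike-in scaling), 6 of 10 fatty acid genes and 55.3% of all genes.

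**Figure D1:**
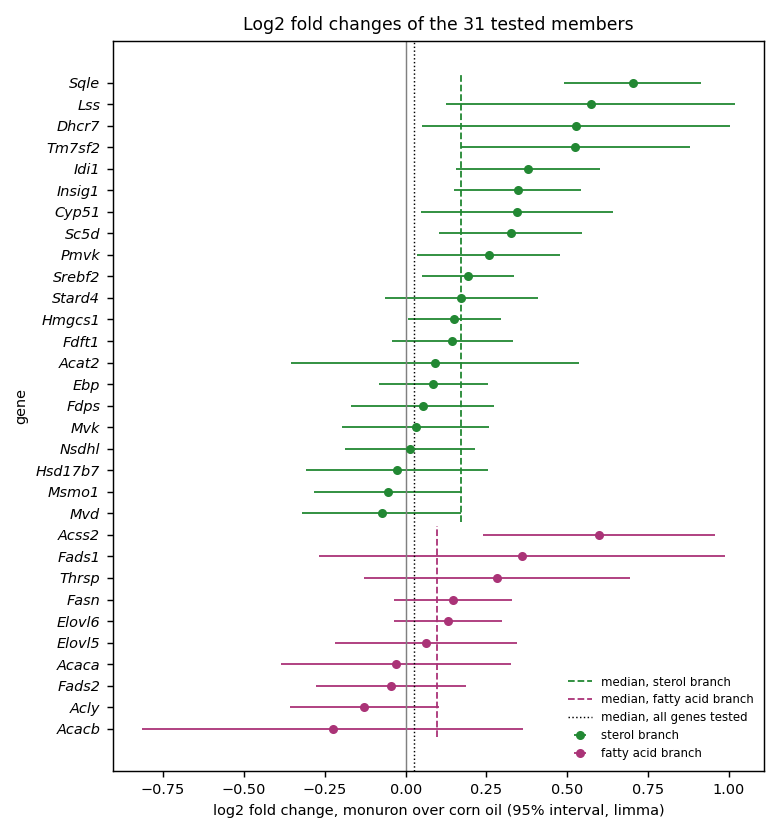
Log2 fold change (monuron over corn oil) of the 31 tested members with its 95% interval from limma, sterol branch in green and fatty acid branch in purple; dashed lines are the branch medians (0.17 and 0.10) and the dotted line the median of all genes (0.02). Relative to the 75th percentile most sterol genes lie to the right of 0 (under spike-in scaling 4 of 21), with Sqle farthest at 0.70, while the fatty acid genes scatter on both sides of 0 apart from Acss2 at 0.60.

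Levels are given as log2 of the processed signal over the array's 75th percentile, corn oil replicates 1 to 3 first and then monuron replicates 1 to 3. They compare arrays for one probe, not one gene with another. The entry into the pathway is the condensation of acetyl-CoA by Acat2, the cytosolic thiolase, and by Hmgcs1, the cytosolic HMG-CoA synthase. Acat2 stood at 3.44, 3.17 and 3.31 with corn oil and at 3.02, 3.51 and 3.66 with monuron. The groups overlapped, with the lowest of all arrays in monuron replicate 1. Hmgcs1 stood at 2.76, 2.80 and 2.81 and at 2.91, 2.97 and 2.94, a narrow spread in both groups with no overlap and a log2 fold change of 0.15 ± 0.06 (SE, adjusted p = 0.268). Its 3 probes gave log2 fold changes from 0.12 to 0.27.

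Of the mevalonate steps that follow, Pmvk and Idi1 separated the groups and Mvk and Mvd did not. Mvk, mevalonate kinase, had a log2 fold change of 0.03 ± 0.09, and Mvd, the decarboxylase that makes isopentenyl diphosphate, of -0.07 ± 0.10. Pmvk, the phosphomevalonate kinase between them, stood at 0.26, 0.35 and 0.16 with corn oil and at 0.38, 0.58 and 0.57 with monuron. Its groups did not overlap, though monuron replicate 1 lay close to corn oil replicate 2 (adjusted p = 0.230). Idi1, which isomerises isopentenyl diphosphate, stood at 0.68, 0.80 and 0.67 and at 0.99, 1.06 and 1.24. All 3 monuron arrays were above all corn oil arrays, a 1.30-fold difference (1.12 to 1.52, adjusted p = 0.122), and the 3 probes ran from 0.38 to 0.43 on the log2 scale. Fdps, which builds farnesyl diphosphate, had a log2 fold change of 0.05 ± 0.09, with overlapping groups.

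The steps from farnesyl diphosphate to lanosterol held the largest difference of the list. Fdft1, squalene synthase, stood at 2.93, 2.98 and 2.79 with corn oil and at 3.03, 3.01 and 3.09 with monuron, a log2 fold change of 0.14 ± 0.08 with the groups just apart. Sqle, which adds oxygen to squalene ahead of ring closure, stood at 1.08, 1.23 and 1.19 with corn oil and at 1.80, 1.80 and 2.00 with monuron. The gap between the groups was wider than the spread within either, with a log2 fold change of 0.70 ± 0.09 and adjusted p = 0.0311, and its other probe gave 0.62. The call did not survive leaving out any 1 array, where adjusted p ran from 0.0921 to 0.112, whereas the log2 fold change stayed between 0.64 and 0.74. Over all 20 alternatives adjusted p ran from 0.00896 to 0.218 and Sqle was called in 10.

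Lss, lanosterol synthase, stood at 0.15, 0.18 and 0.27 with corn oil and at 0.37, 0.90 and 1.05 with monuron. Monuron replicate 1 lay just above the corn oil arrays and the other 2 well above them, for a log2 difference of 0.57 ± 0.18 (adjusted p = 0.201). The second passing probe of Lss did not show this, with a log2 fold change of -0.06, so the size for Lss rests on 1 probe.

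From lanosterol the ring is demethylated, reduced and isomerised. Cyp51, lanosterol 14-alpha-demethylase, stood at -0.42, -0.27 and -0.56 with corn oil and at -0.26, -0.05 and 0.09 with monuron. The lowest monuron array lay only just above the highest corn oil array, with a log2 fold change of 0.34 ± 0.12 (adjusted p = 0.232), and its other probe gave 0.63. Tm7sf2, a sterol C14 reductase of the next step, stood at 2.25, 2.26 and 1.99 and at 2.48, 2.67 and 2.94, a 1.44-fold difference (1.13 to 1.84, adjusted p = 0.159) that its probes gave alike (0.52 and 0.53 on the log2 scale).

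The C4 demethylation genes did not separate the groups. Msmo1, the C4 methylsterol oxidase, stood at 4.15, 4.12 and 4.13 with corn oil and at 4.06, 3.94 and 4.24 with monuron. The corn oil arrays sat close together inside the range of the monuron arrays, and the log2 fold change was -0.05 ± 0.09. Nsdhl, the C4 decarboxylating dehydrogenase, had a log2 fold change of 0.01 ± 0.08. Hsd17b7, the 3-ketosteroid reductase of this step, had -0.03 ± 0.11, and its probes differed in sign (-0.03 and 0.18).

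Of the last steps, Ebp, the sterol isomerase, stood at 3.95, 3.93 and 3.93 with corn oil and at 3.95, 4.003 and 4.11 with monuron. Its groups touched without overlapping, at a log2 fold change of 0.09 ± 0.07. Sc5d, the C5 desaturase, stood at 1.05, 0.80 and 1.00 and at 1.22, 1.25 and 1.35, higher in every monuron animal (0.32 ± 0.09, adjusted p = 0.160). Dhcr7, the 7-dehydrocholesterol reductase that ends one route to cholesterol, stood at 1.96, 2.71 and 2.19 and at 2.80, 2.87 and 2.78. The monuron arrays agreed closely while corn oil replicate 2 came near them, so the log2 fold change of 0.53 ± 0.19 has a wide error (adjusted p = 0.247).

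The branch's regulators differed by less than Sqle. Srebf2, encoding SREBP-2 and itself an SREBP target, stood at 1.67, 1.67 and 1.72 with corn oil and at 1.89, 1.85 and 1.89 with monuron. The spread within each group was small and the difference of 0.19 ± 0.06 was 1.14-fold (adjusted p = 0.185). Insig1, which encodes the sterol-sensitive brake on SREBP processing and is a direct SREBP target, stood at 2.23, 2.22 and 2.12 and at 2.46, 2.50 and 2.65. It was higher in every monuron animal, by 1.27-fold (1.11 to 1.46, adjusted p = 0.115), and its 4 probes ran from 0.34 to 0.48 on the log2 scale. Stard4, a cytosolic sterol carrier that SREBP-2 also regulates, had a log2 fold change of 0.17 ± 0.10 with overlapping groups.

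**Figure D2:**
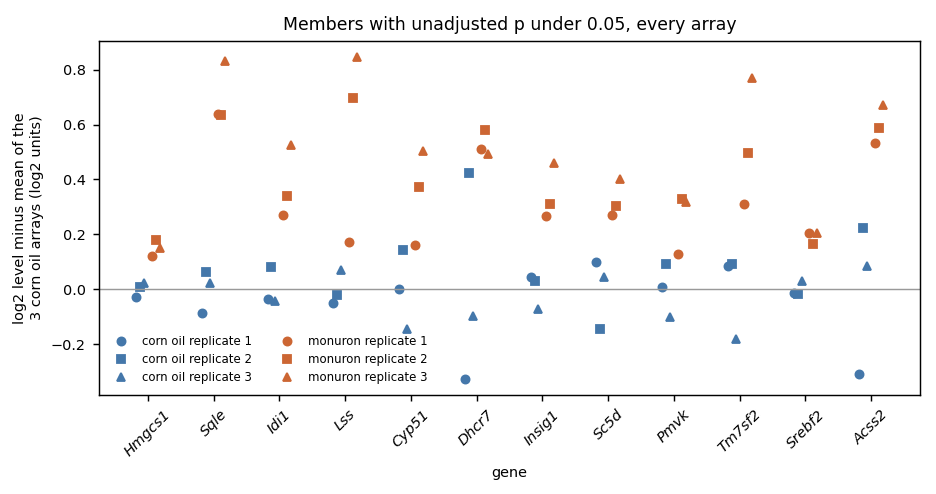
Log2 level of the 12 members with an unadjusted p under 0.05, for every array, after subtracting the gene's mean over the 3 corn oil arrays; blue marks corn oil, orange monuron, and circles, squares and triangles replicates 1 to 3. Scaled on the 75th percentile, each gene's 3 monuron arrays lie above its 3 corn oil arrays (spike-in scaling put 7 of these 12 log2 fold changes below 0), and monuron replicate 3 is often the highest.

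The fatty acid branch begins with the supply of acetyl-CoA. Acss2, the cytosolic synthetase that makes it from acetate and is a target of both SREBP proteins, stood at 2.47, 3.00 and 2.86 with corn oil and at 3.31, 3.36 and 3.45 with monuron. It was the one fatty acid member past the unadjusted threshold, at 1.51-fold (1.18 to 1.94, adjusted p = 0.127), with corn oil replicate 1 well below the other corn oil arrays and both passing probes up (0.45 and 0.60). Acly, ATP citrate lyase, which makes acetyl-CoA from citrate, stood at 3.70, 3.94 and 3.70 and at 3.66, 3.73 and 3.57. Its groups overlapped at a log2 fold change of -0.13 ± 0.09.

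The committed and chain-building enzymes showed no separation beyond the replicate spread, or a small one. Fasn, fatty acid synthase, stood at 1.22, 1.098 and 1.18 with corn oil and at 1.23, 1.38 and 1.33 with monuron, a log2 fold change of 0.15 ± 0.07 (adjusted p = 0.370) with the groups just apart. The acetyl-CoA carboxylases Acaca and Acacb had -0.03 ± 0.14 and -0.23 ± 0.24. Elovl6, the elongase of C16 chains, had 0.13 ± 0.07 at its brighter probe and -0.08 at its other, and Elovl5, an elongase of polyunsaturated chains, 0.06 ± 0.11.

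The desaturase members Fads1 and Fads2 did not separate the groups. Fads1, the delta-5 desaturase, stood at 1.35, 0.83 and 0.73 with corn oil and at 0.93, 1.33 and 1.73 with monuron, with wide overlap and a log2 fold change of 0.36 ± 0.25. Fads2, the delta-6 desaturase, had -0.05 ± 0.09. Thrsp, a lipogenic protein responsive to thyroid hormone, had 0.28 ± 0.17. For these fatty acid members the 95% intervals still allow folds from 0.830 to 1.98 for Fads1 and 0.569 to 1.29 for Acacb; the first of these intervals contains the fold of Sqle.

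The branches were set side by side on each array by centring every member on its mean over the 6 arrays and averaging over the branch. For the sterol branch this mean stood at -0.12, -0.09 and -0.13 on the corn oil arrays and at 0.01, 0.11 and 0.22 on the monuron arrays, with no overlap. For the fatty acid branch it stood at -0.02, 0.03 and -0.19 and at 0.00, 0.06 and 0.12, with overlap through corn oil replicate 2. The sterol minus fatty acid difference was -0.10, -0.12 and 0.06 with corn oil and 0.01, 0.05 and 0.11 with monuron. These overlapped through corn oil replicate 3, although the sterol branch alone separated the groups. The group means differed by 0.111, beside standard deviations of 0.098 with corn oil and 0.050 with monuron. Whether the branches differed from each other was not tested. The difference of the branch medians was 0.08 and ran from 0.05 to 0.13 over the 19 alternatives other than spike-in scaling. No p is given for these means, since the members were chosen with results known.

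Sterol genes often had their highest value on the same monuron animal. Of these genes 15 had their highest value of all 6 arrays on monuron replicate 3, 4 on monuron replicate 2 and 1 each on monuron replicate 1 and corn oil replicate 3. The lowest values were spread over corn oil replicates 1 to 3 (6, 4 and 6 genes), with 3 on monuron replicate 1 and 2 on monuron replicate 2. Of the fatty acid genes 3 were highest on monuron replicate 3 and 3 on corn oil replicate 2. The share of all genes highest on each array was not computed, so these counts are not read as particular to the sterol branch. With 1 array left out in turn, the sterol median ran from 0.15 (without monuron replicate 3) to 0.22 (without monuron replicate 1). The members with an unadjusted p under 0.05 and a higher level, 12 with all arrays, were 7 without monuron replicate 2 or 3, 8 without corn oil replicate 1 or 3, and 10 without corn oil replicate 2 or monuron replicate 1.

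**Figure D3:**
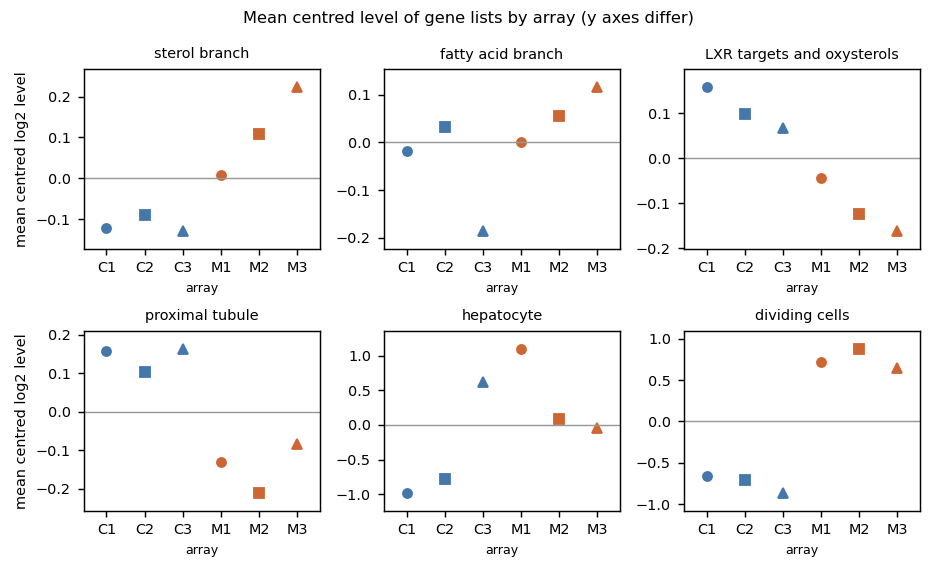
Mean centred log2 level of 6 gene lists on each array (C1 to C3 corn oil replicates, M1 to M3 monuron replicates; vertical axes differ between panels). The sterol branch separates the groups with M3 highest at 0.22, the fatty acid branch overlaps, and the hepatocyte list is highest on M1 at 1.101 and on C3 at 0.61.

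Transcripts of other cell types were read from marker lists beside these values. Cortex was represented by all 8 proximal tubule markers, whose summed level, in units of the 75th percentile, ran from 1762 to 1946 with corn oil and from 1384 to 1601 with monuron; 7 of 8 lay below 0 on the log2 fold scale, with 0 called (Cubn, an endocytic receptor, -0.69 ± 0.12). The 13 hepatocyte markers, liver being a tissue rich in sterol enzymes, had a centred mean of -0.98, -0.78 and 0.61 with corn oil and 1.101, 0.09 and -0.04 with monuron, and a summed level of 105 to 126 and 97.1 to 131. Serpinc1, antithrombin, made up 82.3 to 110 of that sum, and the other 12 markers summed to 7.88, 8.38 and 27.9 with corn oil and 31.8, 12.8 and 16.8 with monuron. Of the 13, 11 lay above 0 with a median log2 fold change of 1.05, and 0 were called. The arrays highest in them, corn oil replicate 3 and monuron replicate 1, were those with the lowest sterol mean of their own group. In the corn oil group this holds by a narrow margin. The sterol mean was -0.129 on replicate 3 and -0.122 on replicate 1, the array lowest in hepatocyte markers. Leaving out corn oil replicate 3 and monuron replicate 1 raises the monuron mean by construction. The sterol median of 0.20 without them is thus no measure of the part of liver transcripts, which was not tested.

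Adipose and adrenal tissue border the kidney and make fatty acids and cholesterol. Of 9 adipocyte markers 5 were tested, with a summed level of 1.42 to 2.42 with corn oil and 1.67 to 1.72 with monuron. Their log2 fold changes had both signs: Cidec, a lipid droplet protein, had 1.03 ± 0.32 with no overlap between groups, while Lipe, hormone-sensitive lipase, had -0.25 ± 0.08 with no overlap the other way, and 0 were called. Lep was not well above background on any array and Fabp4 was so on 1 of 3 in each group. Of 8 adrenal cortex markers 3 were tested, with sums of 2.97 to 5.27 and 3.22 to 5.62, while Star, Cyp11b2, Mc2r and Nr5a1 were not well above background on any array. Mrap made up 2.67 to 5.24 of those sums. The other 2 markers summed to 0.30, 0.32 and 0.33 with corn oil and 0.28, 0.38 and 0.34 with monuron.

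Dividing cells need membrane sterol, and their markers moved with treatment: 8 of 8 rose, with a summed level of 4.44 to 5.56 against 13.6 to 16.1. They include Ccnb2, a mitotic cyclin, at 3.41-fold (adjusted p = 0.00486). All 5 tested erythroid markers rose and 4 of them were called (sums 324 to 433 and 783 to 866), among them Alas2 at 3.73-fold. The centred mean of the dividing cell list was 0.72, 0.88 and 0.64 on the monuron arrays and was lowest on replicate 3, where the sterol mean was highest. Macrophage markers had 6 tested, 0 called and a median log2 fold change of -0.27, and thick limb, distal tubule and collecting duct markers 6 tested, 0 called and a median of 0.02. The part of any of these cell types in the sterol values was not tested.

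The neighbours of the pathway were read from lists kept apart from the members. Of 11 late sterol and isoprenoid genes 1 was called higher and 0 lower, with a median of 0.04. The call was Idi2, a paralogue of Idi1, and it is not read as a change: its probe passed detection only through the group where it was high, well above background in 1 corn oil and 3 monuron animals. It stood at -5.66, -5.85 and -5.58 with corn oil and at -4.45, -4.11 and -4.64 with monuron (adjusted p = 0.0292). The log2 fold change of 1.29 became 0.89 with a floor on low values (adjusted p = 0.175) and 0.41 with normexp (adjusted p = 0.0848), and adjusted p ran from 0.00793 to 0.217 over the alternatives. Its other probe was not well above background on any array, and cross-binding between the paralogues was not tested. Pdss2, a subunit of the enzyme that makes the coenzyme Q side chain, had -0.38 ± 0.08.

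The genes that sense and move sterols were read next. Of 11 genes of SREBP processing and sterol sensing 0 were called and 2 had an unadjusted p under 0.05, both lower. These were Paqr3 (-0.33 ± 0.10), a Golgi anchor of the SCAP complex, and Scap itself (-0.28 ± 0.11), for a list median of -0.06. Of 13 genes of sterol uptake, transport and esterification 0 were called and 0 had an unadjusted p under 0.05 (median -0.10), with Lrpap1, a chaperone of lipoprotein receptors, at -0.18 ± 0.10 and Osbpl2, an oxysterol-binding protein, at -0.13 ± 0.08.

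LXR targets are switched on by oxysterols when cells hold excess cholesterol. The list read here holds such targets and also the genes of the LXR receptors and of enzymes that handle oxysterols. Of its 10 tested genes 0 were called, and 8 had a log2 fold change below 0 (median -0.20). These counts and the list's means are therefore not those of LXR targets alone, and the target Lpcat3 had 0.09 ± 0.11. Pltp, the phospholipid transfer protein, had -0.62 ± 0.18 (adjusted p = 0.179) and Abcg1, a sterol exporter, -0.44 ± 0.18 (adjusted p = 0.281). The groups overlapped for Abcg1, and the targets Abca1 and Mylip had -0.17 ± 0.23 and -0.12 ± 0.14. The centred mean of the list was 0.16, 0.10 and 0.07 with corn oil and -0.04, -0.12 and -0.16 with monuron, with no overlap and in the direction opposite to the sterol branch.

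Other genes of fatty acid synthesis were divided. Of 25 tested 0 were called, with a median of 0.05. At an unadjusted p under 0.05, 7 (28.0%) were higher, beside 10.9% of all genes. On the lower side there were 3, where all genes reach 6.73%. Among the higher ones Me1, the malic enzyme that supplies NADPH, had 0.25 ± 0.07. Among the lower ones Acsl1, an acyl-CoA synthetase, had -0.43 ± 0.10 and Elovl1, an elongase of very long chains, -0.27 ± 0.07. Scd2, a desaturase named after its values were seen because Scd could not be tested, stood at 1.51, 1.29 and 0.61 with corn oil and at 1.77, 1.88 and 2.75 with monuron. Its groups did not overlap, but corn oil replicate 3 and monuron replicate 3 stretched the difference to 1.00 ± 0.35 (adjusted p = 0.229), and its 3 probes ran from 0.81 to 1.00. Of 9 glycerolipid synthesis genes 0 were called and 1 had an unadjusted p under 0.05, Pcyt2, of phosphatidylethanolamine synthesis, at -0.26 ± 0.10. Dgat1, a triglyceride-forming acyltransferase, had -0.13 ± 0.06, and the list median was 0.10.

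**Figure D4:**
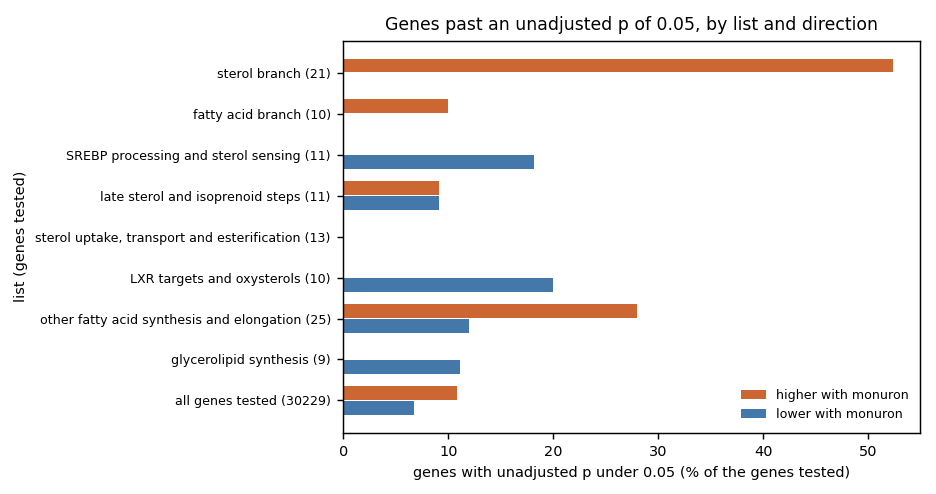
Share of tested genes with an unadjusted p under 0.05, higher (orange) or lower (blue) with monuron, for the 2 branches, 6 lists of neighbouring genes and all genes tested; the number of genes tested stands in brackets. The sterol branch reaches 52.4% on the higher side, where all genes reach 10.9%. The list of LXR targets and oxysterol genes has 0 higher and 20.0% lower (2 of 10 genes), where all genes reach 6.73%.

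Of the 20 members with several passing probes, 17 had probes of 1 sign, the exceptions being Lss, Hsd17b7 and Elovl6. Detection ran from 60.9% of non-control probes on corn oil replicate 2 to 70.4% on monuron replicate 1. The number of arrays, 3 per group, limits the precision of every value.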

How the data were processed

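Spot intensity in the deposited scanner files is linear and was extracted using Agilent Feature Extraction 10.7, a version that comes from the submitters' processing notes. The table deposited by the authors gives a ratio: dividing the processed signal by 1 constant per array returned its values of at least 0.1 within 0.0497%. Column medians were 0.108 to 0.112. Each processed intensity was divided by its array's 75th percentile over 61537 non-control probes and log2-transformed, leaving out 1439 control spots and outlier spots (0 to 32 per array, none in a member's tested value). Accessions matched to RefSeq named 28206 probes (45.8%), and 41125 probes passed detection. The comparison used limma 3.58.1 under R 4.3.3 (lmFit, eBayes, two-sided, Benjamini-Hochberg over 30229 genes, threshold 0.05). All adjusted p-values are from this test, errors are SE, and intervals are 95%. Functions were tested on simulated data. The members, lists, tests and the rule for named genes (members in full, neighbours with the smallest p) were chosen with earlier results of these data known. The labels give the animals as separate, with 3 per group. Alternatives covered scaling, background correction, the authors' table, detection filter, floor, probes per gene, variance model, the replicate block and left-out arrays. Background correction (normexp) used the median spot signal, since a mean spot signal was not analysed here. Some genes of the lists beside the members are not reported here. A slide block could not be fitted, because 0 of 2 slides held both groups.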

Additional observations from a re-analysis of the deposited data

How the results depend on the processing

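The sterol median ran from 0.15 to 0.26 and the fatty acid median from 0.04 to 0.18 over the 19 alternatives other than spike-in scaling. The higher sterol value, 0.26, came without scaling, where 61 genes were called lower. Scaled on 8 spike-in probes, the medians were -0.31 and -0.39, 0 members were called higher and 19 lower, and 20089 genes were called lower. Log2 fold changes then turned to -0.33 for Hmgcs1, -0.11 for Idi1, -0.43 for Fdps, -0.34 for Fdft1, -0.14 for Cyp51 and for Insig1, -0.47 for Nsdhl, -0.16 for Sc5d, -0.45 for Mvk, -0.23 for Pmvk, -0.40 for Ebp, -0.31 for Stard4, -0.29 for Srebf2, -0.39 for Acat2, -0.34 for Fasn, -0.35 for Elovl6, -0.42 for Elovl5, -0.13 for Fads1, -0.20 for Thrsp and -0.23 for Me1, while Sqle stood at 0.22. This follows from the scaling's shift of all genes alike; why spike-in levels differed between the slides was not tested. Cyp11a1, an adrenal marker, turned to -0.15.

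Members near 0 changed sign more easily. Without scaling Msmo1 was 0.03, Mvd 0.01, Hsd17b7 and Acaca 0.06 and Fads2 0.04. With normexp Nsdhl and Mvk were -0.02, Hsd17b7 0.04 and Fads2 0.03. The mean of a gene's probes gave Hsd17b7 0.08 and Lipe 0.10. Leaving out 1 array, or corn oil replicate 3 with monuron replicate 1 (Mvd 0.05, Hsd17b7 0.03), gave ranges across 0 for Fdps (-0.02 to 0.09), Nsdhl (-0.05 to 0.07), Msmo1 (-0.14 to 0.02), Mvd (-0.12 to 0.05), Mvk (-0.05 to 0.09), Acat2 (-0.04 to 0.28), Hsd17b7 (-0.14 to 0.05), Acaca (-0.15 to 0.08), Elovl5 (-0.01 to 0.20) and Cyp11a1 (-0.30 to 1.21).

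Members called higher were 2 with normexp, and 0 without a detection filter, with the replicate block, without that pair of arrays, and without each array in turn (0 to 0). All genes called higher and lower were 449 and 320 with normexp, 67 and 19 without a detection filter, 431 and 276 with eBayes trend and robust, 0 and 0 with the replicate block, 0 and 0 without the pair of arrays, and between 25 and 111 higher and 5 and 27 lower without each array in turn. With the block 4557 genes, and without the pair 4190, had an unadjusted p under 0.05. Same-numbered animals did not vary together (correlations of deviations -0.080, 0.106 and -0.165), so the numbers are not read as pairs. More tests, fewer samples or fewer residual degrees of freedom enter these losses by construction; other causes were not tested.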
